A study of Drosophila melanogaster with 4 samples.

Results

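The left arm of chromosome 3 of Drosophila melanogaster, 3L, was examined for regions enriched by chromatin immunoprecipitation followed by sequencing (ChIP-seq) with an antibody against POF. The regions were those listed on the sequence 3L with a midpoint within the first 22.5 Mb, which leaves off the 2.04 Mb next to the centromere. This rule gave 516 of the 3139 regions of replicate 1, 439 of the 2853 regions of replicate 2, and 2034 of the 11489 regions of a list that the authors made for the replicate set, called the combined list here. All samples came from wild-type Oregon-R (Oregon-R-modENCODE) embryos labelled 14-16 hr, and the ChIP samples from the antibody labelled POF (MO 459). The 4 samples were 2 ChIP replicates and 2 inputs (chromatin DNA that did not go through immunoprecipitation), with 1 input named for each ChIP replicate. The collection protocol speaks only of embryos up to 16 h old, fixed in 1.8% formaldehyde. Whole embryos hold many tissues, so a region cannot be assigned to a cell type. Separate embryo collections are not stated for the replicates, and their spread may therefore be technical.

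POF binds RNA and is known for coating the small chromosome 4, which gave it its name. There it binds nascent transcripts and raises the output of active genes. Its binding there is tied to that of heterochromatin protein HP1a and the histone methyltransferase Eggless. The large autosome arms, among them 3L, are not coated, and the regions described here are scattered along the arm. Position 1 of 3L lies at the telomere, and positions rise towards the centromere. Positions are on FlyBase release 5, and genes at them were not assigned, since no annotation of that release was used here. Since the series has inputs as its control samples, a given region may hold POF or chromatin recovered nonspecifically, and the lists cannot tell these apart.

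The lists differed in grain along 3L. Replicate 1 covered 0.948 Mb, or 4.21% of the 22.5 Mb considered, at 22.9 regions per Mb. Replicate 2 covered 0.822 Mb, or 3.65%, at 19.5 regions per Mb. The combined list covered 3.30 Mb, or 14.7%, at 90.4 regions per Mb, so it held many more places than both replicate lists together. At the limit of the rule, the last combined region inside ran from 22495235 to 22496751 with a deposited score of 0.493, and the first one outside began at 22530867 with a score of 0.554. Left out beyond that limit were 17 regions of replicate 1, 10 of replicate 2 and 87 of the combined list.

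3L was the least covered of the large arms in each replicate list, but not in the combined list. The same length of centromere-proximal sequence was left off 2L, 2R, 3R and X for this comparison. Mean coverage of the replicates was 3.93% ± 0.395 on 3L (SD, n = 2), against 4.53% ± 0.344 on 2L, 4.68% ± 0.181 on 3R, 5.16% ± 0.329 on X and 5.63% ± 0.517 on 2R. The nearest arm, 2L, exceeded 3L by 0.560 percentage points in replicate 1 and by 0.632 in replicate 2, a mean gap of 0.596 ± 0.0510 (SD, n = 2). This gap was larger than its own spread, and the values of the 2 arms did not overlap, with 4.21% as the higher on 3L and 4.29% as the lower on 2L. In the combined list the order of these 2 arms was the other way round, with 14.7% on 3L and 14.6% on 2L, and the remaining arms lay between 15.8% and 19.8%.

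**Figure D1:**
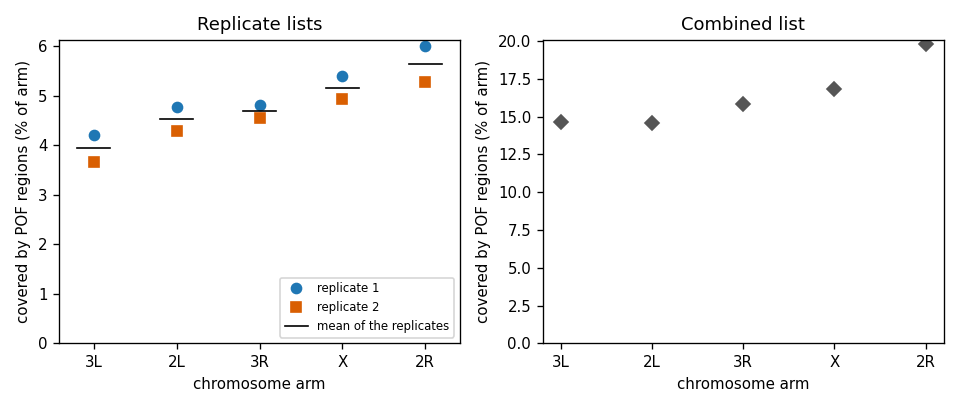
Share of each large arm covered by POF regions (y axis, %), for the 2 replicate lists with their mean as a bar (left) and for the combined list (right). 3L is lowest in both replicates, at 4.21% and 3.65%, while in the combined list 3L and 2L stand together at 14.7% and 14.6%.

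Set against the other large arms together, the lower coverage came with fewer regions more than with narrower ones. Against the other large arms as a whole, 3L had 0.791 ± 0.0270 times their coverage (SD, n = 2 replicates), 0.815 ± 0.0427 times their number of regions per Mb and 0.969 ± 0.0142 times their median width. In the combined list these ratios were 0.880, 0.928 and 0.953. Against 2L alone the pattern did not hold in every list. In replicate 1, 3L had 22.9 regions per Mb of mean width 1837 bp, and 2L had 24.4 of 1954 bp. Replicate 2 gave 19.5 of 1872 bp on 3L and 22.4 of 1916 bp on 2L. The combined list had more regions per Mb on 3L than on 2L, 90.4 against 86.1, with a median width of 1391 against 1456 bp. The median deposited score of replicate 1 was 0.682 on 3L and 0.710 on the other arms, and that of replicate 2 was 0.645 and 0.659. This difference came with the higher scores of X, since medians on 2L, 2R and 3R ran from 0.676 to 0.688 in replicate 1 and from 0.632 to 0.642 in replicate 2. Every ratio and difference pointed the same way in both replicates. The exact two-sided sign-flip permutation test over the 2 replicates gave p = 0.5 for coverage, number, width and score (adjusted p = 0.5 over the 4 tests), the smallest value possible with 2 replicates, which lies above the threshold of 0.05.

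In percentage points, 3L fell further below the other arms in its most covered bins than in its median bin. An equal relative shortfall in all bins would also give the larger gap where coverage is higher. The contrast therefore does not single out the most covered bins, and relative gaps were not tested. In bins of 100 kb, the 95th percentile of coverage on 3L was 10.2% in replicate 1 and 9.61% in replicate 2. Over the bins of the other arms it was 13.6% and 12.0%, a mean difference of -2.88 ± 0.674 percentage points (SD, n = 2; exact sign-flip permutation p = 0.5, a comparison chosen after the values were seen). The median bin had 3.58% and 3.41% on 3L. In replicate 1 it was lower than on the other arms by 0.410 (2L) to 1.45 (X) percentage points, and the 95th percentile by 2.93 (3R) to 4.35 (2R). In replicate 2 these gaps were 0.0940 (2L) to 1.24 (2R) for the median and 1.45 (3R) to 2.47 (2R) for the 95th percentile. Empty bins made up 13.8% and 22.2% of the 3L bins, on either side of the shares on 2L (20.1% and 20.6%) and above those on 2R (7.85% in each replicate).

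In windows of 2.5 Mb, coverage was highest in the first window from the telomere, though not at the very end. Regions of replicate 1 covered 6.07% of the first 2.5 Mb, those of replicate 2 covered 5.32% and combined regions 21.8%. These values were above each of the other 8 windows of this size in every list. Within that window, the first 500 kb had 5.00%, 3.67% and 16.0%, and the outermost bin of 100 kb had 0%, 0% and 1.09%. In replicate 2 the lowest window was that from 10 to 12.5 Mb, at 1.89%, and replicate 1 also had its lowest value there, at 3.36%. The combined list had its minimum one window further on, from 12.5 to 15 Mb, at 11.4%. Of the windows of 500 kb, that from 500001 to 1000000 was the highest in the combined list, at 26.7%, and in replicate 1, at 8.43%. Replicate 2 had its highest values from 21500001 to 22000000, at 7.75%, and from 3000001 to 3500000, at 7.61%, with 6.98% from 500001 to 1000000. The last window of 2.5 Mb before the limit, from 20 to 22.5 Mb, had 4.08%, 4.02% and 15.3%, so coverage did not decline steadily towards the centromere. Combined regions had a median width of 1467 bp in the first window and between 1312 and 1472.5 bp in the others.

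**Figure D2:**
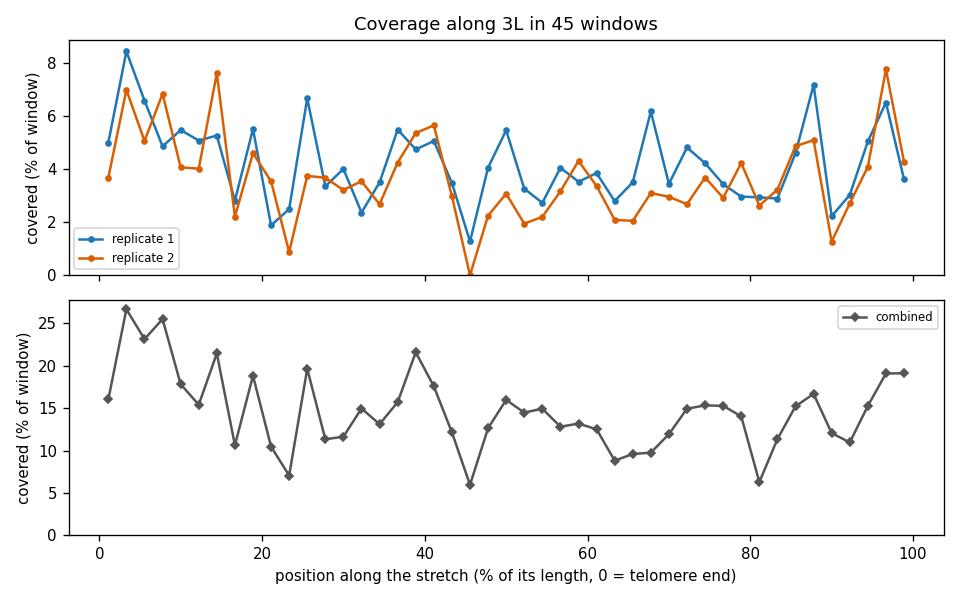
Coverage by POF regions (y axis, % of window) in 45 windows of 500 kb along 3L, plotted as a share of the stretch's length from the telomere end, for the replicate lists (top) and the combined list (bottom). The window with the least coverage in all 3 lists had 1.27%, 0% and 5.97%, and the 3 highest combined windows lie between 0.5 and 2 Mb from the telomere end.

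A single bin stood well above the rest of the arm. The bin from 600001 to 700000 was covered to 22.1% by replicate 1, to 18.9% by replicate 2 and to 47.2% by combined regions, the highest value of all 225 bins in each list. It held 11, 8 and 21 region midpoints. Next by the mean of the replicates came the bin from 9400001 to 9500000, with 13.2% and 10.2%, followed by that from 15100001 to 15200000, with 13.3% and 9.80%. The bins from 19000001 to 19100000, with 11.4% and 11.2%, and from 200001 to 300000, with 11.2% and 10.8%, completed the 5 most covered. The combined list ranked these 5 differently: the bin at 15100001 stood at rank 37 and that at 19000001 at rank 25, while the first kept rank 1.

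**Figure D3:**
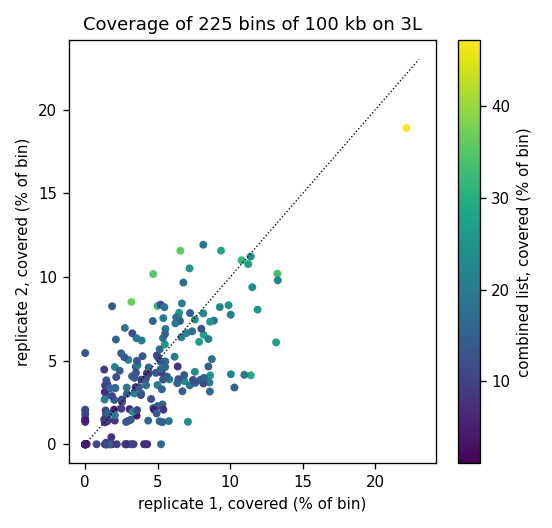
Coverage of each of the 225 bins of 100 kb on 3L (%) in replicate 1 (x axis) and replicate 2 (y axis), coloured by coverage in the combined list; the dotted line marks equal values. One bin, at 22.1% and 18.9%, lies apart from the others, and 23 bins lie at 0 in both replicates.

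Bins rose and fell together in the replicates. Over the 225 bins, Pearson's r between the replicates was 0.736 and Spearman's rho 0.719, given as a description, because neighbouring bins share chromatin and each list shares 1 library. The same Pearson coefficient was 0.738 on 2R, 0.803 on X, 0.811 on 3R and 0.856 on 2L. Of the 3L bins, 23 were empty in both replicates, 8 in replicate 1 alone and 27 in replicate 2 alone, and none was empty in the combined list. Replicate 1 was the higher in 122 bins and replicate 2 in 79.

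Regions were unevenly spaced. The median gap between neighbours was 25.4 kb in replicate 1 and 25.5 kb in replicate 2, and 5.31 kb in the combined list. The shortest gaps were 25, 34 and 5 bp, and 308 of the 2033 combined gaps were under 1 kb, so that some neighbours may be pieces of 1 enriched stretch. The 75th percentile of gaps was 56.2 kb, 60.7 kb and 11.7 kb. The standard deviation of the distance between neighbouring midpoints was 1.18, 1.41 and 1.13 times its mean in the same order. Median gaps of the replicates were longer on 3L, at 25.5 kb ± 0.0368 (SD, n = 2), than on 3R, at 21.8 kb ± 0.705, or 2L, at 20.0 kb ± 0.417.

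**Figure D4:**
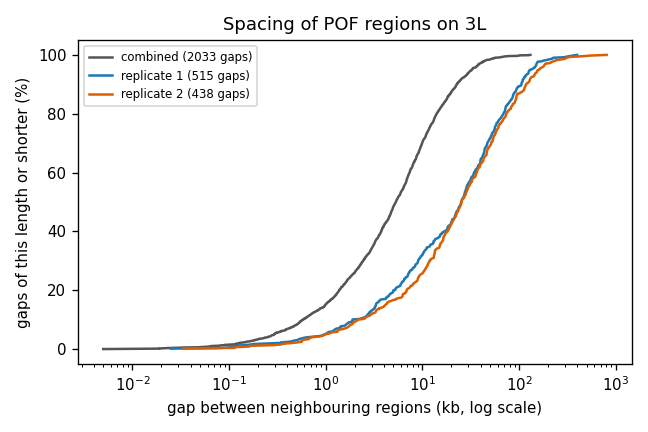
Cumulative share of gaps between neighbouring POF regions on 3L (y axis, %) by gap length (x axis, kb, log scale) for each list. The replicate curves run close together around a median of 25.4 to 25.5 kb, with a longer upper tail in replicate 2, and the combined curve lies to the left at 5.31 kb.

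The longest gap of replicate 2, and the longest stretch free of both replicate lists within it, lay near the middle of the arm. The gap of replicate 2 ran from 9848714 to 10654386, which is 806 kb. Within it, replicate 1 had 6 regions and its own gap of 364 kb from 10265892 to 10630029, the second longest of that list. No other stretch free of both replicate lists was as long as this one of 364 kb. The combined list had 9 regions in it, of which 7 were narrower than 1301 bp, and they covered 2.60% of it. The next stretches free of both replicate lists were 3472414 to 3767045, 1892134 to 2115076, 4923202 to 5136839 and 14199354 to 14402051, with lengths between 203 and 295 kb and a combined coverage between 3.09% and 6.46%.

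Other long gaps of 1 replicate were broken by regions of the other. Replicate 2 had a gap of 548 kb from 14199354 to 14747831, which held 4 regions of replicate 1, and one of 452 kb from 11816869 to 12269235, which held 5. Replicate 1 had its longest gap, 398 kb, from 18266953 to 18665312, where replicate 2 listed 3 regions. Gaps of 200 kb or more numbered 9 in replicate 1 and 13 in replicate 2, and took up 11.4% and 19.7% of the arm. The corresponding shares were 15.5% and 17.6% on 2L, 15.1% and 11.6% on 3R, 11.0% and 6.14% on 2R, and 4.43% and 15.9% on X. 3L was thus above 2R and X in each replicate, and above 2L and 3R in replicate 2 but not in replicate 1. In replicate 1 it was only slightly above 2R, which also had 9 such gaps on a shorter arm. Library depth is not known, and a stretch without regions cannot be told apart from one too weakly recovered to be called.

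In the combined list 5 gaps reached 100 kb, and together they made up 2.61% of the arm. The longest, 131 kb, ran from 15330885 to 15461942. Next came the gaps from 18266935 to 18395139 (128 kb), 3625691 to 3749415 (124 kb), 10520425 to 10623905 (103 kb) and 1984066 to 2085172 (101 kb). Of these, 4 contained no base of either replicate list. The gap beginning at 18266935 was touched by the edge of 1 replicate 1 region, which covered 0.0140% of it. 2L had 5 such gaps too, X had 4, 3R had 3 and 2R had 1.

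Crowded stretches were next described as clusters, runs of at least 5 combined regions with no more than 5 kb between neighbours. 3L had 61 of them, and they held 384 of its 2034 regions, or 18.9%. That share was 21.3% on 3R, 25.2% on 2L, 28.2% on X and 33.5% on 2R. The largest clusters had 12 regions each. One ran from 1277572 to 1320497 and was covered to 52.8%, and the other from 3142313 to 3183804 and was covered to 46.9%. In each of them 9 of 12 regions overlapped neither replicate list, a share near the 67.5% of all combined regions on 3L. A cluster of 11 regions from 2224660 to 2266878 held 5 regions of replicate 1 and 6 of replicate 2. Of its 11 combined regions, 4 overlapped neither replicate list. The next clusters, with 9 regions each, ran from 13018327 to 13049546, with 6 and 4 replicate regions, and from 9433715 to 9463076, with 4 and 1.

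Clusters of the replicate lists, taken as at least 3 regions with gaps of at most 10 kb, were sparser on 3L in replicate 2. There were 35 in replicate 1, holding 23.8% of its regions, and 17 in replicate 2, holding 13.4%. The other arms taken singly ran from 24.6% (3R) to 32.5% (2R) in replicate 1. In replicate 2 they ran from 23.8% (2R) to 30.3% (2L). In replicate 1, 3L was thus close to 3R. On the other arms together these shares were 29.0% and 26.7%, a mean difference of -9.23 ± 5.70 percentage points (SD, n = 2; exact sign-flip permutation p = 0.5, chosen after the values were seen). Replicate 1 had a cluster of 10 regions from 592845 to 644009, which spans the border of the most covered bin, and replicate 2 had a cluster of 5 regions overlapping it, from 627277 to 654653. Another 5 replicate 2 regions, from 9685069 to 9713387, made up its only other cluster of that size. Every one of the 6 combined regions in the replicate 2 cluster at 627277 overlapped at least 1 replicate list. That cluster was defined by its replicate 2 regions, so such overlap was largely set by the choice of the stretch. Of all combined regions, 67.5% on 3L and 65.0% over all sequences overlapped neither list. A compact group from 13021249 to 13038731, with 6 regions of replicate 1 and 4 of replicate 2, was covered to 57.4% in replicate 1.

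Replicates were then compared region by region, counting any overlap of at least 1 bp. On 3L, 260 of the 516 replicate 1 regions met one of replicate 2, or 50.4% (46.1 to 54.7, the 95% Wilson interval), against 55.3% over all sequences. In the other direction it was 258 of 439, or 58.8% (54.1 to 63.3), against 61.1% over all sequences. Both shares on 3L were thus near or a little below the level of the whole lists, and 2R, at 51.2% and 58.7%, had nearly the same. Set against the other large arms together, 3L was lower by 5.50 percentage points in replicate 1 and by 2.55 in replicate 2 (exact sign-flip permutation p = 0.5, chosen after the values were seen). In bases, 478 kb were common to both lists, 37.0% of the bases in either, against 36.6% on 2R, 40.2% on X, 41.6% on 3R and 44.2% on 2L. Intervals of shares cover counting error only.

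Overlap went with width. Among replicate 1 regions of 1301 to 1500 bp, 37 of 176 overlapped replicate 2, or 21.0% (15.7 to 27.6). The share was 45.3% from 1501 to 2000 bp, 85.0% from 2001 to 3000 bp and 94.1% above that, where 16 of 17 regions were shared. Replicate 2 gave 24.4%, 49.3%, 91.6% and 93.3% in the same classes, the last from 14 of 15. Shared regions had a median width of 2040.5 bp in replicate 1 and 2049.5 bp in replicate 2, and the others 1474 and 1492 bp. A wider region meets another by at least 1 bp more easily. Over regions of all widths, the shares were 47.7% and 56.0% when the overlap had to make up 50% of both regions. Shares by width class were not computed under that rule, so whether the rise with width holds there was not tested. Median scores of shared regions were 0.718 and 0.677, against 0.656 and 0.618 for the others. Score and width were related in each replicate list, with a Spearman rho of 0.491 in replicate 1 and 0.578 in replicate 2.

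Where the replicates met, they met closely. In 251 cases 1 region of replicate 1 overlapped exactly 1 of replicate 2, and nothing else. Their midpoints differed by a median of 100 bp, and 191 of the 251 lay within 250 bp of each other. The median signed offset was 8.50 bp, so neither list was displaced to one side. Starts differed by a median of 108 bp and ends by 112 bp, small against widths of about 2 kb. Scores of the 251 pairs rose together, with a Spearman rho of 0.623.

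**Figure D5:**
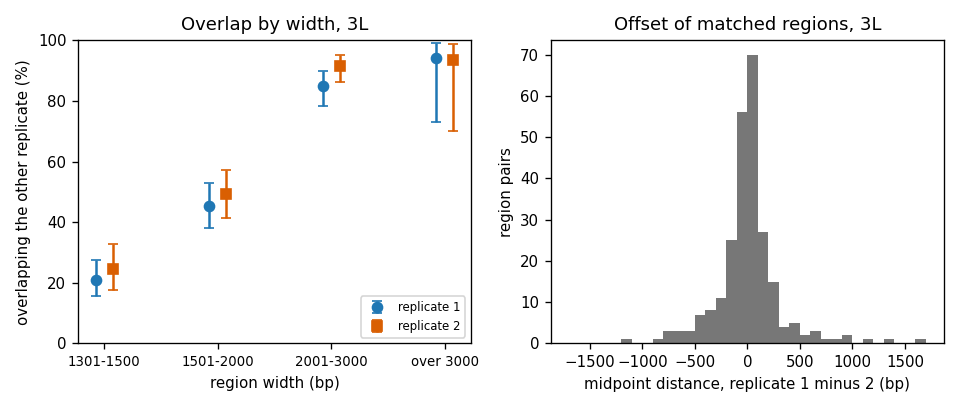
Left, share of 3L regions that overlap the other replicate (y axis, %) by region width (x axis, bp), with 95% Wilson intervals as bars. Right, number of matched region pairs (y axis) by distance between their midpoints (x axis, bp, bins of 100 bp). Overlap climbs from 21.0% and 24.4% in the narrowest class to over 90% in the widest, and most of the 251 pairs lie near 0.

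Unshared regions were mostly not near misses. Of the 256 unshared replicate 1 regions, 31 lay within 2 kb of a replicate 2 region, and the median distance was 15.8 kb. For the 181 unshared replicate 2 regions the numbers were 18 and 12.8 kb. Most had a counterpart in the combined list, 247 of 256 and 165 of 181. Of all 3L regions, 98.3% in replicate 1 and 96.4% in replicate 2 did, against 97.4% and 97.9% over all sequences. The best scoring of them in replicate 2, from 13395600 to 13397052, scored 1.08 and ranked 22 on the arm. Next came 4765574 to 4766902 at 0.951, 4906309 to 4908428 at 0.912, 4900076 to 4902070 at 0.822 and 3152643 to 3153945 at 0.819, of which the last was absent from the combined list too. In replicate 1 the best was 11667146 to 11668613, with a score of 0.960 and rank 45, and the next were 8471740 to 8473849, 5789112 to 5790437, 2165378 to 2167497 and 13511888 to 13514067, with scores between 0.895 and 0.907. Regions above those ranks on the arm were all shared by the replicates.

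Most combined regions had no counterpart in either replicate list. On 3L, 258 of 2034, or 12.7% (11.3 to 14.2), overlapped both lists, against 14.9% over all sequences. Another 1373, or 67.5% (65.4 to 69.5), overlapped neither, against 65% over all sequences. Overlap with replicate 1 alone was found for 243 regions (11.9%, against 11.3% over all sequences), and with replicate 2 alone for 160 (7.87%, against 8.84%). Regions in neither list were narrow, with a median of 1216 bp, and 830 of them, or 60.5%, were below 1301 bp, the shortest width in the replicate lists on 3L. Those in both lists had a median of 2453.5 bp, and 1 of them was below 1301 bp. Covered sequence was less one-sided than the counts: regions in neither list made up 55.5% of it and regions in both 21.2%. The combined list came from the same samples, so these overlaps were not tested.

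The strongest regions that all 3 lists shared were between 2 and 4 kb wide and spread over the arm. The best ran from 16580294 to 16582747, with a deposited score of 1.65 in the combined list, 1.44 in replicate 1 and 1.67 in replicate 2, the top value of 3L in replicate 2. The region from 6598024 to 6600420 scored 1.40, 1.30 and 1.57. About 419 kb towards the telomere, the region from 6176787 to 6179273 scored 1.37, 1.59 and 1.31, and was first on the arm in replicate 1. Scores are not compared across lists, but each of these regions stood among the first 11 on 3L in each of them. Next in the combined list were 22399952 to 22402430 at 1.29, 20518232 to 20520698 at 1.28 and 3470203 to 3473824 at 1.24. The last of these ranked 2 in each replicate, at 1.54 and 1.60, and lies at the edge of the stretch from 3472414 that was free of replicate regions.

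The remaining named regions scored between 1.19 and 1.23 in the combined list. They ran from 21871757 to 21874700, 1365942 to 1368141, 22451282 to 22455239 and 12601634 to 12603988. The one at 22451282 ranked 3 in both replicates, at 1.51 and 1.59, and lay 44.8 kb inside the centromere-proximal limit. Together with the regions at 21871757 and 22399952, it put 3 of the 10 into the last 0.628 Mb of the stretch. All 10 overlapped both replicate lists, as the rule for naming them required.

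Width and score picked different regions. The widest combined region, of 7057 bp from 17959671 to 17966727, had a score of 0.532 and rank 424 on the arm, and replicate 2 split it into 3 regions. The region of 6566 bp from 5800391 to 5806956 scored 0.601 and that of 5810 bp from 636693 to 642502, inside the most covered bin, 0.573. The region of 5472 bp from 5760243 to 5765714 scored 0.765, and that of 5304 bp from 18991351 to 18996654 scored 0.431, rank 1444 on the arm. All 5 overlapped both replicate lists, against 12.7% of all combined regions on 3L and 14.9% over all sequences. Regions this wide meet others by at least 1 bp more easily. Over the whole combined list on 3L, score and width were nearly unrelated, with a Spearman rho of 0.0118. Few regions were wide at all: 90 of 2034 combined regions, 17 of 516 in replicate 1 and 15 of 439 in replicate 2 exceeded 3 kb.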

How the data were processed

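The authors deposited 3 lists of regions of significant enrichment, on FlyBase release 5 per the file headers, with 1 score per region. The submitters' processing notes name Bowtie 0.12.7; how regions were called and how replicates were combined is not given in the sources used. The scale of the score is not stated. Of the scores other than the commonest of their list, 738 of 3105 in replicate 1, 336 of 2834 in replicate 2 and 1507 of 11354 in the combined list lay a log2 ratio of 2 integers of at most 60 away from it (within 1e-09). On a base-10 scale 0, 1 and 2 did, and on a natural scale 0 in each. The deposited score was read as a log2 ratio on this basis and used only within a list. The lists hold no read counts, and depth is therefore unknown; no list of an input was analysed here.

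Coverage, gaps, clusters, bins and overlaps were computed with Python 3.11.15, numpy 2.4.6, pandas 2.3.3 and scipy 1.17.1, figures with matplotlib 3.10.9, and the steps were tested on simulated data. The sample is the list: regions are not replicates, so tests run over the 2 replicates. Named regions were the 10 best combined scores among regions in both replicate lists, and the 5 widest regions, largest clusters, longest gaps, most covered bins and best unshared regions of each replicate. The members, rules and thresholds were chosen with earlier results of these data known. No sequence is shown, because no genome of release 5 was used here.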

Additional observations from a re-analysis of the deposited data

How the results depend on the processing

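The coverage, density and width ratios of 3L to the other large arms stayed below 1 with whole arms, the combined list, the better scoring part of each list, merged neighbours, or 2L and 3R alone, each where it was run. Leaving out a replicate gave 0.772 to 0.810 for coverage, 0.785 to 0.845 for density and 0.959 to 0.979 for width. The replicate 2 share of 58.8% was 52.9% in the better scoring part of both lists. The share of combined regions in both replicate lists, 12.7%, was 15.6% with regions extended by 500 bp and 25.0% in the better scoring part. The correlation of bins, 0.736, was 0.635 for midpoint counts. Clusters held 384 combined regions at a gap of 5 kb, 115 at 3 kb, 1156 at 10 kb and 20 in the better scoring part. Gaps of at least 100 kb numbered 5, against 10 at 75 kb, 0 at 150 kb and 43 when only combined regions found in a replicate list were kept. The counts of clusters and gaps change with the limit by construction. Keeping only better scoring regions, or only those found in a replicate list, leaves fewer regions to count. How far that accounts for these counts, and the cause of the other changes, was not tested. Depth is unknown, which limits the calls that were possible.

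No paired analysis was possible because the lists used here are of the ChIP replicates, for each of which the labels name 1 input, and lists of the inputs were not analysed here.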

Other observations

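The 5 best combined scores on 3L belonged to regions that overlapped neither replicate list. Of the 10 best, 7 overlapped neither, a share near the 67.5% of all combined regions on 3L, and 6 were narrower than 1301 bp. The first 2, from 10408115 to 10409115 and from 14305171 to 14306171, were both 1001 bp wide, the shortest width in that list on 3L, and had the same score of 3.02. The region from 5297844 to 5298869, of 1026 bp, stood next at 2.02, lower by 1.00. Any region in neither list lies in a stretch free of both replicate lists. For the first it was the longest such stretch, from 10265892 to 10630029. For the second it was that from 14199354 to 14402051. Among the 20 best scores, 11 overlapped both replicate lists and 9 neither. Among the 50 best, 40 overlapped both and 10 neither, and among the 100 best, 83 and 16. The number of reads behind these regions is not part of the lists, and its part in their scores was not tested.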
